A study of Mus musculus with 30 samples.

Results

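Smarcc2, Actl6b, Trrap and Aff3 are 4 mouse genes that encode proteins acting on chromatin or on transcription in neurons, and their RNA is described here as it was spliced in several classes of neuron with and without the splicing factor Nova2. All rows of 4 deposited splicing tables that carried 1 of these gene symbols were taken, whatever the type of event. They hold 35 rows for 19 distinct events, in 4 of the 1828 genes and among the 4923 distinct events of the tables. Overlapping events fell into 6 regions, 2 in Smarcc2, 2 in Trrap and 1 each in Actl6b and Aff3. The genes were selected on the authors' levels and false discovery rates (FDR), since only events past the authors' thresholds are listed, so these values describe the chosen events and are no test of them.

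The study sequenced RNA from the brain and spinal cord of mice in 30 samples, 3 in each of 10 groups, and 18 samples in 6 groups stand behind the tables used. Cortical neurons were sorted by flow cytometry at embryonic day 18.5 from mice of the genotypes Wild-type_Emx1-Cre, Nova2-cKO_Emx1-Cre, Wild-type_Gad2-Cre and Nova2-cKO_Gad2-Cre. The Purkinje cell layer of the cerebellum was dissected at postnatal day 28 from mice labelled Wild-type_Pcp2-Cre and Nova2-cKO_Pcp2-Cre. All 6 groups were of strain C57BL/6J and all carried a Cre transgene, the controls included. Emx1 is a gene of excitatory cortical neurons and their precursors, Gad2 one of inhibitory neurons and Pcp2 one of Purkinje cells, so that Nova2 is lost (conditional knockout, cKO) only in the cells in which that Cre acts. The Purkinje layer was dissected and not sorted, so cells other than Purkinje cells were present. Splicing tables hold no expression levels, so the labelled cell types could not be checked against their markers here. Whether a group's 3 samples were separate animals is not in the labels, so the spread behind the authors' FDR may be technical.

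Nova2 is an RNA-binding protein of neurons that recognises the 4-letter element YCAY, in which Y is C or U. Where it binds decides the outcome in the usual model: sites downstream of an exon favour its use, and sites within or just upstream favour its skipping. Smarcc2 (BAF170) is a scaffold subunit of the BAF complex, which moves nucleosomes with the energy of ATP, and Actl6b (BAF53b) is the actin-related subunit that replaces Actl6a in BAF when neuronal precursors leave the cell cycle. Trrap is a very large scaffold without kinase activity that brings histone acetyltransferases to the activators that recruit them. Aff3 belongs to the AF4/FMR2 family, whose members are scaffolds of super elongation complexes that help RNA polymerase II through early elongation.

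The exons on which the results turn are shown 5′ to 3′ as DNA of the transcribed strand, with YCAY matches (C or T, then CA, then C or T, overlaps allowed, the other strand not searched) in capitals. They come from transcripts of GENCODE release M21 on build GRCm38, which is mm10, and positions are counted from 1. The exons shown for Smarcc2 lie on the plus strand at chr10:128488294-128488359 and chr10:128481682-128481774. Those of Trrap, also on the plus strand, lie at chr5:144810151-144810204 and chr5:144810332-144810352. The Aff3 exon lies on the minus strand at chr1:38538927-38539001, and the Actl6b exon on the plus strand at chr5:137554996-137555096. All 6 were coding in the GENCODE transcript from which they were read.
Smarcc2, 66 nt exon: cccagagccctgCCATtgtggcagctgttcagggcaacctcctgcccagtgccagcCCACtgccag
Smarcc2, 93 nt exon: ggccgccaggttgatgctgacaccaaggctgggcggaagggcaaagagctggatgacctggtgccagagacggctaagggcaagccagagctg
Actl6b, 101 nt exon: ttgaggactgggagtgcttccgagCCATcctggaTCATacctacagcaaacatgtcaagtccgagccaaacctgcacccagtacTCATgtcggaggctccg
Trrap, 54 nt exon: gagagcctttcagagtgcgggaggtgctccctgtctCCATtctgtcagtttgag
Trrap, 21 nt exon: cctgCCATggaaggggtagag
Aff3, 75 nt exon: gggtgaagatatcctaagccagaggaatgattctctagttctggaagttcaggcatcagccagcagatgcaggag

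An inclusion level is the share of an event's RNA that holds the alternative region, from 0 to 1, and each table gives 1 pooled level per group, with no value for a single sample. A table lists an event only if its levels differed by at least 0.1 with an FDR of at most 0.05 and a coverage of at least 20. An event missing from a table may have differed by less or may have been too thinly covered, and these cannot be told apart. In a pool of cells, a change in every cell and a change in the mix of cells likewise cannot be told apart. Nova2 itself had 0 listed events in each of the 4 tables.

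In Emx1-Cre neurons the 4 genes had 17 listed events, 12 of them lower in cKO than in control and 5 higher, where 51.6% of all 2682 events listed in the authors' deposited table were lower. Their differences ran from 0.110 to 0.856 with a median of 0.407, against a median of 0.209 over all events of the authors' deposited table. In Gad2-Cre neurons 12 events were listed, 10 lower and 2 higher in cKO, where 58.6% of the 1970 events in the authors' deposited table were lower. Their median difference was 0.435, against 0.202 over all events of the authors' deposited table. Differences of 0.5 or more were reached by 6 of the 17 and 5 of the 12 events, against 7.87% and 7.51% of all events in the authors' deposited tables. The Purkinje table listed 0 events of the 4 genes among 603, of which 32.2% had the lower level in the authors' group 2. Several of these events share exon junctions, so they are not separate observations: with 1 event per region, 6 remain for Emx1-Cre and 4 for Gad2-Cre neurons.

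**Figure D1:**
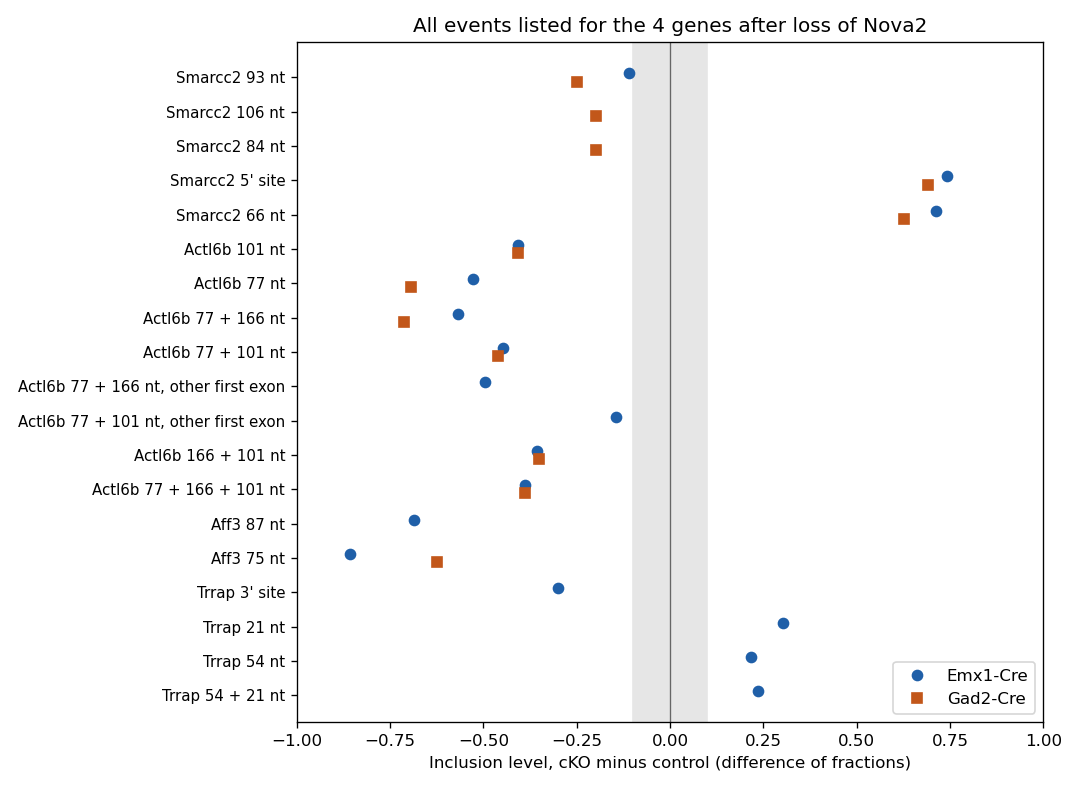
Difference of the authors' inclusion levels, cKO minus control (x axis, fractions), for all 19 events of the 4 genes (y axis); blue circles are Emx1-Cre neurons, orange squares Gad2-Cre neurons, and the grey band covers the differences below 0.1 that the tables leave out. All Actl6b and Aff3 points lie to the left, the Smarcc2 events near the 66 nt exon lie to the right, and the Trrap events have no Gad2-Cre point.

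The largest shifts in Smarcc2 were around an exon of 66 nt near the 3′ end of its coding sequence, which controls seldom used. In Emx1-Cre neurons its inclusion level was 0.154 in control and 0.868 in cKO neurons by the authors' deposited table (FDR 1.43e-50, coverage 129). In Gad2-Cre neurons the authors' level rose from 0.0781 to 0.704 (FDR 3e-24, coverage 88). Among all listed events these differences were rank 46 by size for Emx1-Cre and rank 44 for Gad2-Cre neurons. In both classes of neuron the form with the exon went from the minor to the major one.

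The same stretch of Smarcc2 was listed as an alternative 5′ splice site. GENCODE has an exon of 84 nt (chr10:128487934-128488017) and a longer form of 426 nt in Smarcc2-203, and the longer form ends at base 128488359, where the 66 nt exon also ends. Both therefore use the same donor site, so the authors' levels of the 2 events are not separate observations. The deposited intervals give the 84 nt form as the one named second, and the form named first is taken here to be the longer GENCODE form. By the authors' value its level rose from 0.168 to 0.910 in Emx1-Cre neurons (FDR 3.22e-60, coverage 126) and from 0.104 to 0.794 in Gad2-Cre neurons (FDR 3.3e-32, coverage 84). The longer form adds 342 nt, or 114 codons, and the 66 nt exon adds 22 codons, so both keep the reading frame. From these levels it cannot be told apart how much of the RNA held the 66 nt exon alone and how much the whole 426 nt.

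A second Smarcc2 exon, of 93 nt, lies in the middle of the coding sequence, exon 18 of 29 in Smarcc2-202, with 1650 of 3390 coding nt before it. It is the 1 event of the 4 genes that was listed in 3 tables. In Emx1-Cre neurons the authors' level was 0.431 in controls and 0.321 in cKO (FDR 8.96e-05, coverage 540). That difference of 0.110 was barely above the threshold of 0.1 and ranked 2521 of the 2682 events in the authors' deposited table. In Gad2-Cre neurons the authors' level was 0.596 in controls and 0.347 in cKO (FDR 2.73e-10, coverage 357). The authors' controls table lists the exon as more used in Gad2-Cre than in Emx1-Cre controls, by 0.165 (FDR 1.03e-04). The 2 control levels were thus farther apart than the 2 cKO levels, and whether the change differed between the classes was not tested, since no value per sample is given. The tables also hold this exon with acceptors that make it 106 or 84 nt long, at the same donor. The events of both forms had identical levels, 0.292 in Emx1-Cre controls, 0.415 in Gad2-Cre controls and 0.216 in Gad2-Cre cKO by the authors' value, and neither was listed in the Emx1-Cre table. They share the donor junction and the skipping junction of the 93 nt exon, so the events are not separate observations. These levels are therefore not measures of how much the 106 or 84 nt form was used. The 93 and 84 nt forms are multiples of 3 and the 106 nt form is not.

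The event of the 66 nt exon rose and that of the 93 nt exon fell in the same gene in both classes of cortical neuron. The 93 nt exon holds 0 YCAY, whereas 76.6% of the 2245 GENCODE exons of that length hold at least 1. The 66 nt exon holds 2 YCAY, and 28.7% of the 1850 GENCODE exons of 66 nt hold as many or more. The 200 nt before it hold 10, and 0.698% of 2005 windows of this length from GENCODE retained-intron transcripts hold as many or more. Those windows lie before exons of protein-coding transcripts and overlap no other such exon of the gene. The Smarcc2 window was instead read from an exon of a protein-coding transcript, so the 2 are not alike. This window is shown because it has the joint highest count of the 7 windows that were counted beside exons of the 4 genes. It lies at chr10:128488094-128488293, inside the longer exon of Smarcc2-203, so it is both intron to the 66 nt exon and coding sequence in that transcript.
Smarcc2, 200 nt upstream of the 66 nt exon: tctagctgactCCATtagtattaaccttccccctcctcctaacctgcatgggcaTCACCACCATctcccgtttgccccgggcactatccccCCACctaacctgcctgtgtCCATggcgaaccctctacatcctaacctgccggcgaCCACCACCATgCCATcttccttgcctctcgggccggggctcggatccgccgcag

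Actl6b used 3 consecutive exons after its first, of 77, 166 and 101 nt, less in cKO than in control neurons of both cortical classes. They lie at chr5:137554064-137554140, chr5:137554513-137554678 and chr5:137554996-137555096. Each of the 8 listed events pits some of these exons against a junction that skips all 3, so the events move together by construction. Many of them also share junctions that join the exons, so a level cannot be assigned to 1 combination of exons. The largest difference was that of the event that pairs the 77 and 166 nt exons. In Emx1-Cre neurons it fell from 0.726 (control) to 0.157 (cKO) per the authors' deposited table (FDR 1.92e-19, coverage 111). In Gad2-Cre neurons it fell from 0.909 to 0.195 per the authors' deposited table (FDR 1.19e-18, coverage 92), rank 17 of 1970 by size. In this event the skipping form was the major one in cKO in both classes. It was not in the event of the full set of 3 exons, whose authors' cKO levels were 0.534 (Emx1-Cre) and 0.583 (Gad2-Cre).

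The other Actl6b events fell as well. The event of the 77 nt exon fell from 0.720 to 0.192 in Emx1-Cre and from 0.917 to 0.221 in Gad2-Cre neurons, by the authors' value. The event of the 101 nt exon fell from 0.913 to 0.506 and from 0.962 to 0.554 by the authors' value. The event that pairs the 77 and 101 nt exons fell from 0.897 to 0.450 and from 0.960 to 0.498 per the authors' deposited tables. It shares its first and last junctions with the full set of 3 exons, so this is not the share of RNA without the 166 nt exon. Events that hold the 101 nt exon thus had authors' levels of 0.450 or more in cKO, above those of events that do not hold it. All of them use the junction from the 101 nt exon to the exon after it. Whether the 101 nt exon itself was kept more often cannot be told from these levels. The full set of 3 exons fell from 0.923 to 0.534 in Emx1-Cre and from 0.971 to 0.583 in Gad2-Cre neurons, and the pair of 166 and 101 nt from 0.931 to 0.574 and from 0.972 to 0.621, all authors' values. GENCODE holds the full set in Actl6b-205, a protein-coding transcript, and in Actl6b-201, which is annotated for nonsense-mediated decay. The junction that skips all 3 from the first exon of these events is in Actl6b-209, also annotated for nonsense-mediated decay. The 3 exons sum to 344 nt, which is not a multiple of 3, and in Actl6b-205 they follow only 25 coding nt. The RNA or protein level of Actl6b was not analysed here.

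Another first exon of 96 nt had 2 events of its own in Emx1-Cre neurons, both at a coverage of 21. It is used in the protein-coding transcript Actl6b-204, which skips the 77, 166 and 101 nt exons. The pair of 77 and 166 nt fell from 0.746 to 0.250 (FDR 0.0143) and the pair of 77 and 101 nt from 0.952 to 0.806 (FDR 0.0153) per the authors' deposited table. They are the most thinly covered events of the 4 genes. The controls table listed 0 Actl6b events, and the authors' levels of the largest event, taken from the cKO tables, were 0.726 and 0.909 in the 2 control groups.

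The 101 nt exon of Actl6b holds 3 YCAY and the 200 nt after it hold 10, a count reached by 0.648% of the GENCODE windows, whose median is 3. This window is the other with 10 matches, and it starts at the donor of the last exon that is skipped (chr5:137555097-137555296, read from Actl6b-208). The 200 nt after the 166 nt exon hold 6, which 11.3% of windows reach, those after the 77 nt exon 1, and the windows before the 3 exons 3, 4 and 5. The windows on the 2 sides of the intron between the 166 and 101 nt exons overlap in part. So do those of the intron between the 77 and 166 nt exons. A match is a run of letters and no evidence of binding, and the windows beside the Aff3, Trrap and remaining Smarcc2 exons were not analysed here.
Actl6b, 200 nt downstream of the 101 nt exon: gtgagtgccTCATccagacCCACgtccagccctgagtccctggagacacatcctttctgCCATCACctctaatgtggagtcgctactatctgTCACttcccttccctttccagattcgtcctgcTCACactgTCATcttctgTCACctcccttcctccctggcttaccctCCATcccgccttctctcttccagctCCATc

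**Figure D2:**
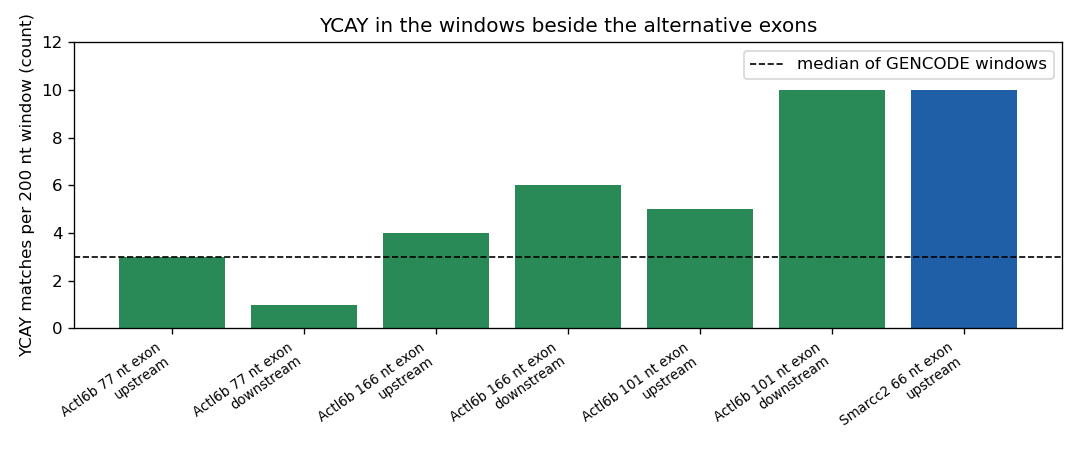
Number of YCAY matches (y axis) in each of the 7 windows of 200 nt beside an alternative exon that were counted (x axis); green bars are Actl6b, the blue bar is Smarcc2, and the dashed line is the median of 3 over 2005 windows from GENCODE retained-intron transcripts. The window after the Actl6b 101 nt exon and the window before the Smarcc2 66 nt exon reach 10.

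Trrap held the events of the 4 genes that differed most between the 2 classes of control neuron. A microexon of 21 nt is annotated in Trrap-207. Its event had levels of 0.278 in Emx1-Cre and 0.891 in Gad2-Cre controls by the authors' value (FDR 3.18e-06, coverage 45.8). This difference of 0.613 ranked 6 of the 1236 events in the authors' controls table. The 54 nt exon just before the microexon is held by Trrap-202, Trrap-207 and Trrap-215. Its event had 0.371 and 0.898 in the 2 control groups by the authors' value (FDR 1.43e-07). Use of both in tandem, 75 nt or 25 codons, had 0.486 and 0.941 (FDR 1.48e-07) in the authors' deposited table. The 3 events share the junction that skips both exons, which is in Trrap-201, Trrap-203 and Trrap-206, and both exons keep the reading frame. The events of the single exons also each share a junction with the tandem pair, whose Emx1-Cre control level was above theirs. Their levels are therefore not the share of RNA that holds each exon, and the 3 events are not separate observations.

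The same Trrap events had higher levels in Emx1-Cre cKO neurons than in their controls. The event of the 21 nt microexon rose from 0.278 to 0.580 per the authors' deposited table (FDR 0.00285, coverage 75.8). That of the 54 nt exon rose from 0.371 to 0.588 (FDR 0.00191) and that of the tandem pair from 0.486 to 0.721 (FDR 7.52e-04), by the authors' value. Each cKO level in Emx1-Cre neurons thus lay between the authors' levels of the 2 control groups. The Gad2-Cre cKO table listed 0 Trrap events, so the level in Gad2-Cre cKO neurons is not known. The authors' controls table and Emx1-Cre table share the Emx1-Cre controls, so their differences for these exons are not independent. Each of the 2 exons holds 1 YCAY, and 26.9% of the GENCODE exons of 21 nt and 48.6% of those of 54 nt hold at least 1.

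Upstream in Trrap, 2 acceptors 3 nt apart make an exon of 98 or 95 nt, GENCODE starts 144791271 and 144791274 on chromosome 5. The form the authors name first, which their intervals give as the 98 nt form of Trrap-215, had a level of 1 in Emx1-Cre controls and 0.699 in cKO at a coverage of 22 (FDR 0.0143) in the authors' deposited table. The 95 nt form, in 4 GENCODE transcripts, is taken here to be the other. This event was listed in no other table.

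Aff3 had the largest difference of the 4 genes. Its 75 nt exon, which encodes 25 codons, fell from 0.932 (Emx1-Cre control) to 0.0756 (cKO) per the authors' deposited table (FDR 1.92e-85, coverage 230), rank 13 of 2682 by size. In Gad2-Cre neurons it fell from 0.986 to 0.360 by the authors' value (FDR 3.1e-20, coverage 73), rank 43 of 1970. Nearly all Aff3 RNA across this junction held the exon in both control groups, and it was the minor form in both cKO groups. The authors' cKO level was lower in Emx1-Cre than in Gad2-Cre neurons, and this difference between the classes was not tested. The event of a form 12 nt longer at the exon's 3′ end, 87 nt or 29 codons, was listed in Emx1-Cre neurons only. Its level fell from 0.712 to 0.0251 per the authors' deposited table (FDR 7.64e-83, coverage 90). Both forms use the same acceptor and the same skipping junction, so they are not separate observations. The level of the 87 nt event is therefore not a measure of how much that form was used, and no GENCODE transcript holds it. GENCODE holds the 75 nt exon in 1 transcript, Aff3-206, as exon 2 of 4 after 53 coding nt, and the skipping junction in Aff3-201, Aff3-202 and Aff3-203. The exon holds 0 YCAY, while 66.3% of the 2080 GENCODE exons of 75 nt hold at least 1.

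**Figure D3:**
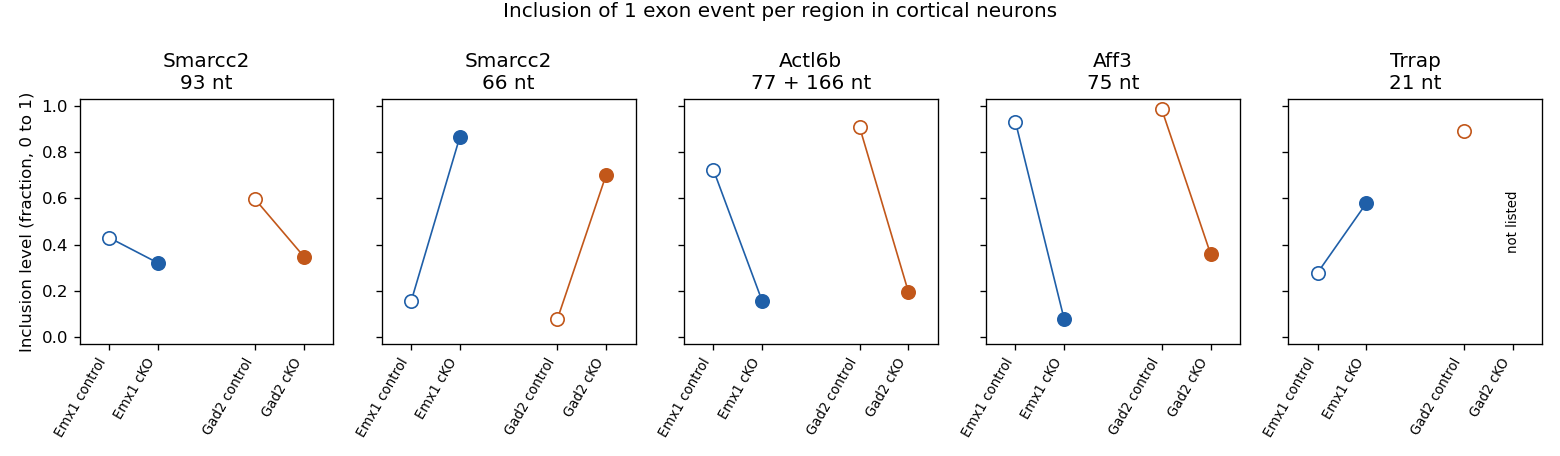
Authors' inclusion level (y axis, 0 to 1) of 1 exon event per region in Emx1-Cre (blue) and Gad2-Cre (orange) cortical neurons; open circles are controls, filled circles cKO, each 1 pooled value per group, and lines join the groups compared in 1 table. The Smarcc2 66 nt event rises while the Actl6b and Aff3 events fall in both classes. The Trrap 21 nt event has no listed level in Gad2-Cre cKO neurons.

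Of the 19 events, 10 were listed in both cortical cKO tables, and all 10 had the same direction in both. The background is high, since 97.4% of the 823 events listed in both tables in any gene had the same direction. Of the Emx1-Cre table's events 30.7% were also in the Gad2-Cre table, and of the Gad2-Cre table's events 41.8% were also in the Emx1-Cre table. For the 4 genes the 10 shared events were 10 of 17 and 10 of 12, in 4 regions. The 4 regions were the 93 nt and 66 nt parts of Smarcc2, the Actl6b exons and the Aff3 exon, while both Trrap regions were absent from the Gad2-Cre table. The drop of the largest Actl6b event was 0.569 in Emx1-Cre and 0.714 in Gad2-Cre neurons, that of the Aff3 exon 0.856 and 0.626, and the rise of the Smarcc2 66 nt exon 0.714 and 0.625, by the authors' values.

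Between controls, 6 events of the 4 genes were listed, 3 in Smarcc2 and 3 in Trrap, and all 6 were higher in Gad2-Cre controls, where 36.3% of all 1236 events in the authors' deposited table were lower. The 6 events lay in 2 regions, so they are not separate observations. Of these 6, 2 differed by 0.5 or more, against 2.35% of all events in the authors' deposited table. In both genes the class with the higher control level was the same, but in Emx1-Cre cKO neurons the Smarcc2 93 nt exon was lower than in control and the Trrap exons were higher. Aff3 had 0 events in the authors' controls table.

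**Figure D4:**
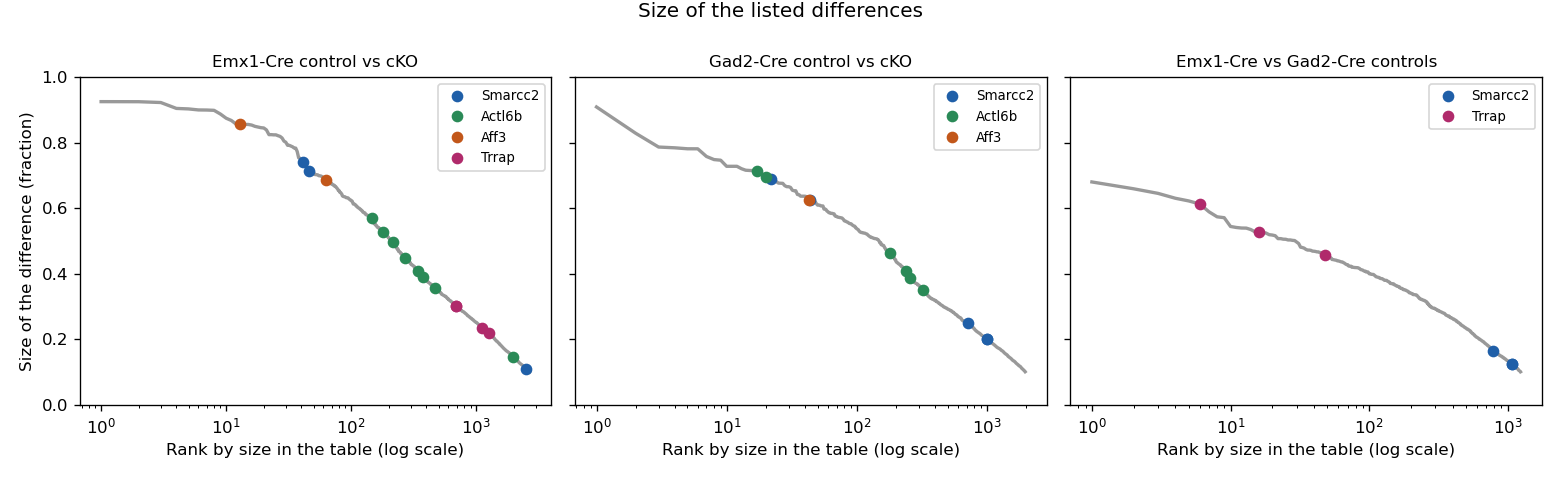
Size of the difference (y axis, fraction) of every listed event against its rank by size (x axis, log scale) in 3 tables; the grey line is all events and coloured points are the events of the 4 genes. Aff3 and Smarcc2 stand near the top in Emx1-Cre neurons, Actl6b and Smarcc2 in Gad2-Cre neurons, and Trrap among controls.

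Across the 4 genes, 7 of the 11 distinct alternative exon forms had a length that is a multiple of 3. Forms of the same exon, in Smarcc2 and in Aff3, are counted separately here and among the cassettes, so the forms are not separate observations. Among single cassette events, in which 1 alternative exon lies between 2 flanking exons, this held for 6 of 8 in Emx1-Cre neurons. In Gad2-Cre neurons it held for 4 of 7, against 57.7% and 54.8% of all listed cassettes in the 2 tables. Such an event can share junctions with a tandem event, so its exon need not be used alone. The other 4 of the 11 are the 3 Actl6b exons and the 106 nt form of the Smarcc2 exon. The 21 nt exon of Trrap is at most 27 nt long, as are 8.66% of the listed cassettes of the Emx1-Cre table. Of the 9 alternative exons whose sequence GENCODE holds, 4 have 0 YCAY (2 of these are forms of the same Smarcc2 exon) and 5 hold at least 1. Of the listed cassettes whose exon GENCODE holds, 68.6% in the Emx1-Cre and 69.6% in the Gad2-Cre table hold at least 1.

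Other subunits of the same complexes were also listed. The number of genes the authors tested is not known. Here and for the lists below, counts of listed genes therefore cannot be set beside a share over all genes. Of 29 other BAF genes, 6 had an event in Emx1-Cre neurons, with 3 higher and 3 lower in cKO by their largest event, and 6 in Gad2-Cre neurons, with 4 higher and 2 lower. Over all listed genes 48.9% and 51.9% were lower in these comparisons. The median of the largest difference was 0.351 and 0.204 for the BAF genes, against 0.204 and 0.208 over all listed genes. Smarce1, the BAF subunit with an HMG box, had an exon region of 173 nt that rose from 0.282 to 0.954 in Emx1-Cre neurons per the authors' deposited table (FDR 2.61e-59). In Gad2-Cre neurons its largest event, of 422 nt, rose from 0.268 to 0.777 by the authors' value. Pbrm1, the polybromo subunit of the PBAF form, had a 156 nt exon that rose from 0.270 to 0.829 in Gad2-Cre neurons per the authors' deposited table. For the retained introns of Brd9, a bromodomain subunit of the non-canonical BAF form, and Arid1a, the largest canonical subunit, the authors' retained level went from 0.448 to 0.843 and from 0.522 to 0.135 in Emx1-Cre neurons. Among the 6 listed BAF genes of Gad2-Cre neurons Brd9 had the third largest difference, and the authors' retained level went from 0.446 to 0.711. In the Purkinje table, for which the labels name no order of the groups, 2 BAF genes were listed. These were Smarce1, whose 422 nt event differed by 0.299, and Arid2, which had a retained intron that differed by 0.147, by the authors' value. Between controls 1 BAF gene was listed, Pbrm1, with a 96 nt exon at 0.421 in Emx1-Cre and 0.299 in Gad2-Cre controls by the authors' value.

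Of 35 genes for other subunits of the acetyltransferase complexes that hold Trrap, 2 were listed in Emx1-Cre and 3 in Gad2-Cre neurons. Eny2, a small subunit of the SAGA module that removes ubiquitin, had, in a row that also carries the symbol Gm22392, a first-named acceptor form that went from 0.736 to 0.455 in Emx1-Cre neurons per the authors' deposited table (coverage 28.9). Ep400, the ATPase of the complex with Trrap and Kat5, had a mutually exclusive pair whose first-named form went from 0.196 to 0.387 in Emx1-Cre neurons by the authors' value. In Gad2-Cre neurons a 48 nt exon of Ep400 fell from 0.216 to 0.0558 at a coverage of 22, and a 219 nt exon of Brd8 rose from 0.178 to 0.296, both authors' values. A retained intron of Mrgbp rose from 0.425 to 0.597 there per the authors' deposited table. Between controls 3 of the 35 genes were listed, Eny2, Mbtd1 and Brd8, and the level was lower in Gad2-Cre controls in each, as it was for 37.5% of all listed genes. That of Eny2 was 0.736 in Emx1-Cre and 0.300 in Gad2-Cre controls, that of Mbtd1 0.775 and 0.468, and that of Brd8 0.293 and 0.178 in the authors' deposited table. Among Purkinje events 1 was listed, a retained intron of Dmap1 that differed by 0.105 between the groups by the authors' value.

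Of 22 genes for elongation factors, 1 was listed in each table. It was Aff4, the relative of Aff3 at the core of the super elongation complex, in both cortical cKO tables. Its 84 nt exon rose from 0.361 to 0.889 in Emx1-Cre neurons (FDR 2.52e-28) and from 0.318 to 0.698 in Gad2-Cre neurons (FDR 6.77e-08) per the authors' deposited tables, while the 75 nt exon of Aff3 fell in both. In the Purkinje table it was Supt5, an elongation factor that can hold the polymerase back, with a 12 nt exon that differed by 0.274 between the groups by the authors' value. Between controls it was Ccnt2, a cyclin partner of the elongation kinase Cdk9, whose first-named donor form was 0.470 in Emx1-Cre and 0.820 in Gad2-Cre controls in the authors' deposited table.

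The exons of other genes that most resembled those of the 4 genes were found by the root mean square difference (RMS) of the authors' levels. For the Smarcc2 66 nt exon, over 4 levels and 315 cassette events listed in both cortical tables, these were exons of Gphn, the scaffold of inhibitory synapses (RMS 0.0203), Sorbs2 (0.0507) and Agfg1 (0.0647). The Gphn exon rose from 0.180 to 0.881 in Emx1-Cre and from 0.0517 to 0.693 in Gad2-Cre neurons by the authors' value. For the Aff3 exon they were exons of Atp11b (0.0319), Ccdc64 (0.0651) and Plekha5 (0.0713). For the Actl6b pair of 77 and 166 nt, over 179 tandem events, they were those of Myo9a (0.0714), Kif2a (0.0868) and Bptf (0.0909). The Trrap microexon could be compared only by its 2 Emx1-Cre levels over 904 cassettes, and Tpm1 (0.00776), Lrrtm4 (0.0101) and E130307A14Rik (0.0102) were nearest. This RMS is over other levels and another pool of events, so its size cannot be set beside those above.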

How the data were processed

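RNA of sorted cortical neurons and dissected Purkinje layer was measured by sequencing total RNA after removal of ribosomal RNA, per the labels. Splicing was quantified by the authors with Quantas, per the labels, against mm10 of the mouse genome, and kallisto and edgeR appear without a role in the submitters' processing notes. The aligner, all versions and strandedness are not given in the sources used here. Per the file headers, each of the 4 deposited tables holds a fraction between 0 and 1 for every group, its inclusion level, pooled by the authors over 3 samples. The authors also deposited a p-value and an FDR per event, and a coverage, a signal per event and comparison that no header or label defines. Testing the tables showed no FDR above 0.05, no difference under 0.1 and no coverage under 20, so events that failed these limits, and the number of events the authors tested, were not analysed here. Sample depth is unknown, and median event coverage was 71 (Emx1-Cre), 64.0 (Gad2-Cre), 88.5 (Purkinje) and 52 (controls).

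The deposited difference is group 1 minus group 2, and the sign was turned here to cKO minus control and to Gad2-Cre minus Emx1-Cre. The labels name the control first in the cortical cKO tables and Emx1-Cre first in the controls table, and name no order for the Purkinje table, whose 2 columns of levels were not used. Control levels were the same in the tables that share them. Events were matched by identifier and named isoforms. For donor and acceptor events and mutually exclusive exons the level is that of the isoform named first, and for introns that of the retained form. No test was run: all p-values and FDRs are the authors'.

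The members and the gene lists were chosen with earlier results of these data known. Described were, per gene and group of overlapping events, the event with the largest difference and every event in 2 or more tables, the 3 nearest events of other genes, and up to 3 listed genes of each of 5 lists (144 genes without the 4 members). The lists cover BAF, the acetyltransferase complexes with Trrap, elongation factors, other nucleosome remodellers and histone methylation. YCAY was counted by a script tested on simulated data. Exons came from GENCODE M21 transcripts. Since no genome sequence was used here, a flanking window was counted only where an exon of a transcript holds it. Aff3, on the minus strand, was left out of the window counts whether or not a transcript holds its windows. The background windows came from GENCODE retained-intron transcripts. The alternatives were stricter limits on coverage (50), difference (0.2) and FDR (0.001), and 1 event per region. Python 3.11.15, pandas 2.3.3, numpy 2.4.6 and matplotlib 3.10.9 were used.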

Additional observations from a re-analysis of the deposited data

How the results depend on the processing

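Counting 1 event per group of overlapping events left 6 of 17 events in the Emx1-Cre table, 4 of 12 in the Gad2-Cre table, 2 of 6 in the controls table and 4 of the 10 shared by both cortical cKO tables, since by construction overlapping events then count once. In the controls table a coverage of at least 50 left 3 events, those of Smarcc2, and a difference of at least 0.2 left 3 events, those of Trrap. The other 14 combinations of a count and a limit stayed within 1.5 times the count as listed, and the Purkinje count was 0 under each. No paired analysis was possible because the tables hold 1 pooled level per group, and for the same reason no sample could be left out. The limits could only be tightened, since events below them were not analysed here. Both Actl6b events with the other first exon (coverage 21) and the Trrap acceptor event (coverage 22) rest on the least coverage.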

Other observations

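Some genes of 2 further lists also had listed events. Of 22 genes for other nucleosome remodellers, 4 were listed in Emx1-Cre neurons, with 2 higher and 2 lower in cKO by their largest event, 4 in Gad2-Cre neurons, with 1 higher and 3 lower, 5 between controls and 0 in Purkinje tissue. The median of their largest differences was 0.321 in Emx1-Cre and 0.208 in Gad2-Cre neurons, against 0.204 and 0.208 over all listed genes, of which 48.9% and 51.9% were lower. The rows under the symbol Chd1, 1 in each cortical table, lie outside the GENCODE gene of that name and are not described. Without them 3 genes were listed in Emx1-Cre neurons, 1 higher and 2 lower with a median of 0.448, 3 in Gad2-Cre neurons, 0 higher and 3 lower with a median of 0.202, and 4 between controls. Bptf, the largest subunit of the remodeller NURF, had a 189 nt exon that fell from 0.742 to 0.189 in Emx1-Cre and from 0.920 to 0.311 in Gad2-Cre neurons per the authors' deposited tables. A tandem event of Bptf was also among those most like the Actl6b exons. In Emx1-Cre neurons a 33 nt exon of Baz2b, a bromodomain protein, fell from 0.714 to 0.266 at a coverage of 24 by the authors' value. In Gad2-Cre neurons tandem exons of Atrx, which deposits histone H3.3 with Daxx, fell from 0.430 to 0.229 by the authors' value. Between controls a tandem event of Bptf had levels of 0.123 in Emx1-Cre and 0.559 in Gad2-Cre controls, and a donor event of Baz2b 0.556 and 0.225, in the authors' deposited table.

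Of 36 genes for histone methylation and its removal, 8 were listed in Emx1-Cre neurons, 4 higher and 4 lower in cKO, 7 in Gad2-Cre neurons, 3 higher and 4 lower, 3 between controls and 0 in the Purkinje table. The median of their largest differences was 0.173 in Emx1-Cre and 0.182 in Gad2-Cre neurons, below the 0.204 and 0.208 over all listed genes. Kdm1a, the demethylase LSD1, has a neuronal microexon of 12 nt that fell from 0.323 to 0.115 in Emx1-Cre (FDR 7.26e-21, coverage 564) and from 0.418 to 0.130 in Gad2-Cre neurons (FDR 6.69e-19, coverage 526) per the authors' deposited tables. Setd5 and the demethylase Kdm3b had mutually exclusive pairs whose first-named form went from 0.168 to 0.401 and from 0.295 to 0.510 in Emx1-Cre neurons by the authors' value. In Gad2-Cre neurons a 109 nt exon of Kdm4b, a demethylase, fell from 0.465 to 0.177, and the first-named donor form of Eed, a Polycomb subunit, went from 0.531 to 0.784 per the authors' deposited table. Between controls, Eed had 0.710 in Emx1-Cre and 0.531 in Gad2-Cre controls, Ezh2, the Polycomb methyltransferase, 0.894 and 0.776, and a retained intron of Kdm5a 0.193 and 0.0777, by the authors' value.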
